A study of Mus musculus with 8 samples.

Results

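The genes described here are 39 mouse genes of fatty acid oxidation and of the target program of PPAR alpha, the nuclear receptor encoded by Ppara, followed in liver RNA on 8 Affymetrix 430 2.0 arrays. A gene was followed through the probe sets (groups of short probes on the array) that the platform annotation gives to that gene alone, and the probe set with the highest mean log2 signal over the 8 arrays stood for the gene. Of the 39 genes, 37 had such a probe set, with 65 probe sets between them, out of 18193 genes on the array with a probe set of their own. Acsl1, an acyl-CoA synthetase, and Cyp4a10, a fatty acid omega-hydroxylase, had none and were left out. All 37 genes passed the filter on low signals, as did 10976 of the 18193 genes.

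The arrays held total liver RNA of 4 groups with 2 arrays each. The groups were Sirt1-null (MT) mice of 3 months, and wild type (WT) mice of 3, 12 and 19 months. MT mice were offspring of heterozygous parents and, as the study describes them, lacked exons 5 and 6 of Sirt1. Per its methods, both genotypes were of a mixed 129, FVB and Black Swiss background, and livers were taken between 9 and 11 AM from mice kept under equal hours of light and dark. Most MT embryos die before birth, so the MT group represents the minority that survived. No source used here gives the feeding state at harvest, and 3 mice per group are stated beside 2 arrays per group, so an array may hold 1 mouse or a pool. All p-values measure only the spread between these arrays, which may be technical.

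Fatty acids reach beta-oxidation as acyl-CoA. The carnitine shuttle carries long chains into mitochondria, where dehydrogenases, hydratases and thiolases shorten them, while peroxisomes take very long chains and make hydrogen peroxide on the way. In fasted liver, fatty acids released from adipose tissue activate PPAR alpha, which pairs with the retinoid X receptor (RXR) and raises genes of both organelles, of ketone body formation, and of circulating fasting signals such as FGF21.

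The deposited values were MAS5 signals, a background-corrected brightness per probe set on a linear scale, scaled to the same mean on all arrays. The median signal lay between 74.5 and 82.8 on the 8 arrays. Sirt1 itself was read by 1 probe set with signals of 615 and 713 in MT mice and 589 and 539 in WT mice at 3 months, a log2 difference of 0.23 ± 0.20 (SE, limma adjusted p = 0.674). Its place relative to the deleted exons is not known here, so it checks nothing about the labels. Of 10 hepatocyte markers 8 had a probe set, and 0 of these were below the array median throughout, while 0 of 10 striated muscle markers passed the filter on low signals. Xist probe sets lay at or above percentile 95.2 and the 9 Y-linked probe sets at or below percentile 43.1 on all 8 arrays. That is the pattern of female tissue in all 4 groups, while the methods describe the mutant mice as males. In bulk RNA, fewer cells of a type and less RNA per cell cannot be told apart.

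By the probe set that stood for the gene, none of the 37 genes passed limma's test (adjusted p under 0.05 over all 22519 probe sets tested) in any of 5 comparisons, although a dimmer probe set of Hadh did at 12 months. In MT against WT mice at 3 months, 0 members were called, against 0.515% of all tested probe sets, and 7 of 37 had an unadjusted p under 0.05, against 13.5% of all. In WT mice at 12 against 3 months, 0 members and 0.0133% of all probe sets were called, and 4 members had an unadjusted p under 0.05, against 8.57% of all. At 19 against 3 months the counts were 0 members against 0.0355% called, and 8 members against 12.5% by unadjusted p. At 19 against 12 months no probe set at all was called (0%), and 6 members, against 10.7% of all, had an unadjusted p under 0.05. In MT mice against WT mice of all ages, 0 members and 0.795% of all probe sets were called, and 7 members, against 14.4% of all, had an unadjusted p under 0.05. The methods' t-test, which uses no adjustment and a fold over 1.5, called 2 members at 12 months (Crat and Vnn1), against 2.23% of all probe sets, and 1 at 19 months against 3 months (Vnn1), against 3.33% of all. In MT mice at 3 months, and between 19 and 12 months, it called 0 members, against 3.95% and 2.33% of all.

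The typical member differed little. The median log2 difference over the 37 genes was -0.001 in MT against WT mice at 3 months, 0.02 at 12 against 3 months, -0.09 at 19 against 3 months, -0.14 at 19 against 12 months and 0.03 in MT mice against WT mice of all ages, where the median of all tested probe sets was 0.02, -0.003, 0.02, 0.03 and 0.02. In the same order of comparisons, 18, 20, 10, 12 and 20 of the 37 genes had a difference above 0. The comparisons against 3-month-old WT mice share the same 2 WT arrays, so their values are given side by side only. The ratio of the highest to the lowest of a gene's 8 signals was under 2 for 25 of the 37 genes, with a low of 1.11 for Acadvl and a high of 17.1 for Vnn1. By this ratio the 14 mitochondrial genes were the steadiest group (median 1.43, with 1 gene, Decr1, at 2 or more), the 9 peroxisomal genes had a median of 1.71, and all 4 fasting signals and other targets lay above 2.

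Arrays of both groups did not overlap for 23 of the 37 genes in MT against WT mice at 3 months, against 45.7% of all tested probe sets. Of these, 7 lay higher and 16 lower in MT mice, against 24% and 21.7% of all. At 12 against 3 months 8 genes lay higher and 7 lower without overlap, against 19.3% and 20.8% of all (40.1% in both directions). At 19 against 3 months 3 genes lay higher and 16 lower, against 26.4% and 21.8% of all (48.2% in both directions). At 19 against 12 months 2 lay higher and 11 lower, against 23.8% and 17.5% of all (41.3% in both directions). In MT mice against WT mice of all ages no gene lay higher and 3 lay lower on both MT arrays than on all 6 WT arrays (Pdk4, Acads and Etfa), against 7.36% and 6.61% of all probe sets (14% in both directions). These shares are descriptions, since the members were not drawn at random from the array.

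**Figure D1:**
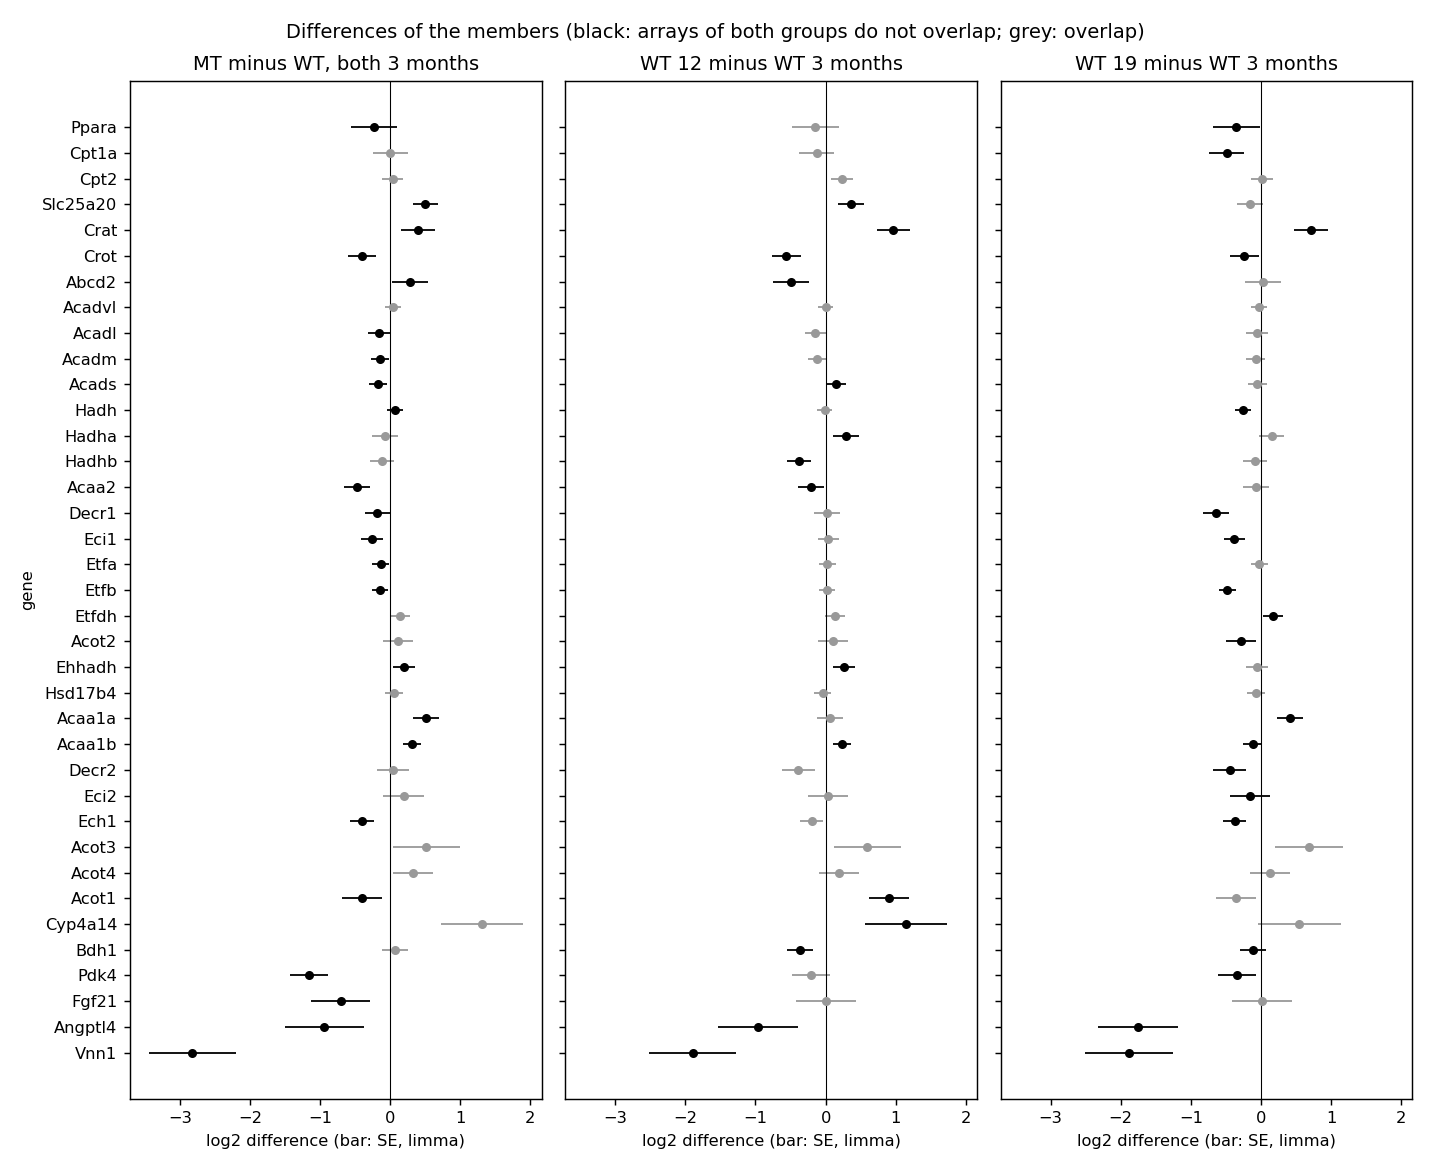
Log2 difference of each of the 37 genes (points, limma) with its standard error (bars) in MT minus WT mice at 3 months, WT mice at 12 minus 3 months and WT mice at 19 minus 3 months, with black points where the arrays of both groups did not overlap and grey points where they did. Most points lie near 0, Vnn1 lies farthest to the left in all 3 panels (-2.82, -1.89 and -1.88), and Cyp4a14 lies farthest to the right in MT mice and at 12 months (1.31 and 1.15).

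Both arrays of a group differed in a shared direction over many members. In MT mice array 2 was above array 1 for 32 of 37 genes, against 51.4% of all tested probe sets, with a median log2 difference of 0.19 against 0.01 for all. In WT mice of 12 months array 2 was likewise above array 1 for 32 of 37 genes (52.4% of all), with a median of 0.37 against 0.02 for all. In WT mice of 3 months the count was 20 of 37, and in WT mice of 19 months 10 of 37, where array 1 was the higher one for the other 27. Averaged over the 37 genes, the log2 deviation from the gene's own mean was -0.20 and 0.14 on the MT arrays, 0.04 and 0.11 on the 3-month WT arrays, -0.15 and 0.27 on the 12-month arrays and -0.04 and -0.16 on the 19-month arrays. The spread within the MT group and within the 12-month group was wider than the distance between any 2 group means. The median of the 37 genes at 19 against 12 months, -0.14 with all arrays, was -0.35 without array 1 of the 12-month group and 0.02 without array 2 of that group.

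**Figure D2:**
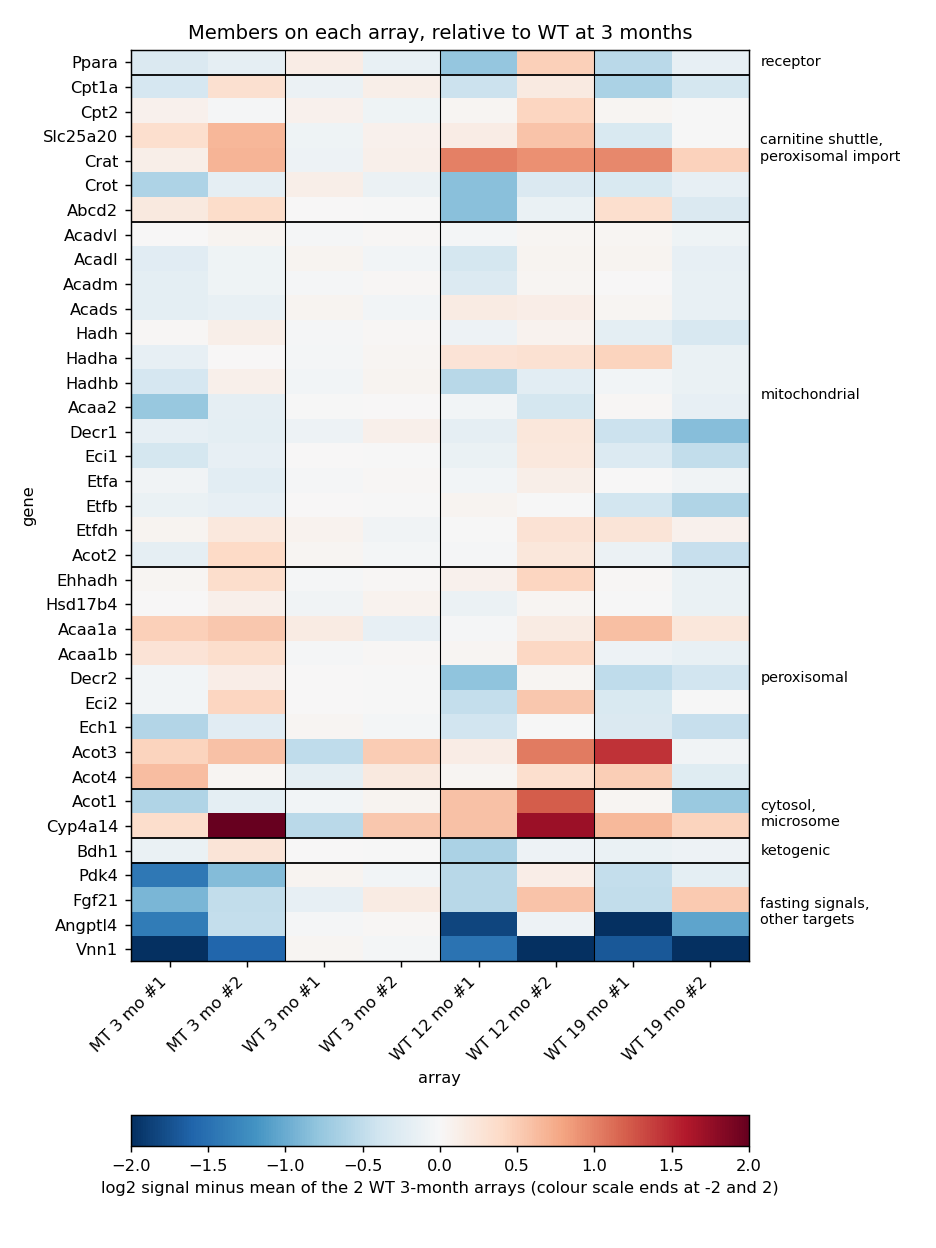
Log2 signal of the 37 genes (rows, grouped by role) on each of the 8 arrays (columns, MT first and then WT by age) minus the mean of both 3-month WT arrays, in colour from -2 to 2. The Vnn1 row is blue on every array outside the 3-month WT group, and array 2 of the 12-month group is redder than array 1 in most rows.

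**Figure D3:**
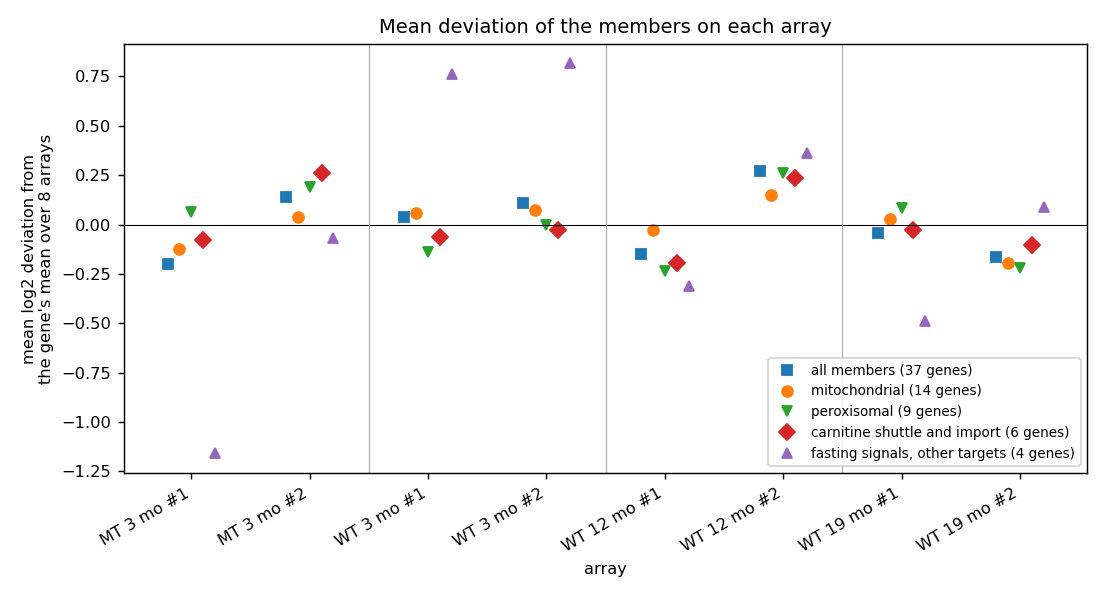
Mean log2 deviation from each gene's own mean over 8 arrays (vertical axis) on each array (horizontal axis), for all 37 genes and for 4 groups of genes by role. Array 1 of the MT group is lowest for the fasting signals and other targets (-1.16), and both 3-month WT arrays are highest for them (0.76 and 0.82).

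Ppara, the receptor itself, had signals of 4901 and 5275 in MT mice, against 6602 and 5390 in WT livers at 3 months, 3506 and 8314 at 12 months and 4094 and 5349 at 19 months. Both arrays of MT and of 19-month WT mice lay below both 3-month arrays, by little, and the 12-month arrays stood on either side of all others. The log2 difference was -0.23 ± 0.33 in MT mice, -0.14 ± 0.33 at 12 months and -0.35 ± 0.33 at 19 months (each ± SE with 2 arrays in a group, limma adjusted p = 0.825, 0.942 and 0.715). The other probe sets of Ppara gave -0.46 and -0.40 in MT mice. No difference in Ppara mRNA was detectable with this number of arrays.

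The carnitine shuttle and peroxisomal import were read by 6 genes. Cpt1a encodes the outer-membrane carnitine palmitoyltransferase that commits long chains to mitochondria, and Cpt2 encodes its partner on the inner membrane. Cpt1a had signals of 5420 and 8529 in MT mice, 6254 and 7402 in WT livers at 3 months, 5073 and 7692 at 12 months and 4399 and 5344 at 19 months. Both 19-month arrays lay below both 3-month arrays, while the MT arrays lay on either side of them. The log2 difference at 19 against 3 months was -0.49 ± 0.25 (limma adjusted p = 0.473) and that in MT mice -0.00 ± 0.25 (adjusted p = 0.999). Its other probe sets did not read alike. One gave 1.04 in MT mice (adjusted p = 0.597) from signals of 1570 and 1281, against 593 and 807 in WT mice at 3 months, and another gave -0.84 at 12 months (adjusted p = 0.528). Cpt2 gave 0.03 in MT mice by its main probe set and -0.98 (adjusted p = 0.627) by a dim one whose 3-month WT signals of 364 and 82.4 disagreed with each other.

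Slc25a20, the carnitine-acylcarnitine carrier of the inner membrane, had signals of 9643 and 12088 in MT mice, against 7181 and 8096 in WT livers at 3 months, 8455 and 11326 at 12 months and 6188 and 7568 at 19 months. Both MT arrays and both 12-month arrays lay above the 3-month and the 19-month arrays. The log2 difference was 0.50 ± 0.18 in MT mice (limma adjusted p = 0.271), 0.36 ± 0.18 at 12 against 3 months (adjusted p = 0.630) and -0.52 ± 0.18 at 19 against 12 months (adjusted p = 0.365). Crat, the carnitine acetyltransferase that buffers acetyl-CoA, had signals of 475 and 706 in MT mice, against 409 and 472 in WT livers at 3 months, 884 and 832 at 12 months and 858 and 604 at 19 months. All arrays of the other groups lay above those of 3-month-old WT mice, by a narrow margin on array 1 of the MT group. The difference was 0.40 ± 0.24 in MT mice (adjusted p = 0.514), 0.96 ± 0.24 at 12 months (adjusted p = 0.297) and 0.71 ± 0.24 at 19 months (adjusted p = 0.295).

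Crot, which makes octanoylcarnitine for export from peroxisomes, had signals of 17320 and 23539 in MT mice, against 28944 and 24550 in WT livers at 3 months, 15004 and 21826 at 12 months and 21552 and 23738 at 19 months. The 3-month WT arrays were the highest of all 8. The difference was -0.56 ± 0.20 at 12 months (limma adjusted p = 0.494), -0.40 ± 0.20 in MT mice (adjusted p = 0.427) and -0.24 ± 0.20 at 19 months (adjusted p = 0.680). Abcd2, a peroxisomal transporter of very long chains, had signals of 1693 and 1899 in MT mice, against 1482 and 1468 in WT livers at 3 months, 823 and 1343 at 12 months and 1861 and 1211 at 19 months. MT arrays lay above and 12-month arrays below those of 3-month-old WT mice, with differences of 0.28 ± 0.26 (adjusted p = 0.700) and -0.49 ± 0.26 (adjusted p = 0.647). Dimmer tested probe sets of Abcd2 gave 0.08 and -0.23 in MT mice (adjusted p = 0.924 and 0.777). At 12 months they gave -0.04 and 0.40 (adjusted p = 0.979 and 0.733).

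The window of 250 bases before to 50 bases after the annotated start was searched for 4 motifs on both strands in the 30 members that RefSeq's table for build GRCm38.p6 holds (33 windows), beside all 32851 windows of that table. The motifs were AGGTCANAGGTCA (the spaced repeat that PPAR binds with RXR), the half-site AGGTCA contained in it, the E-box CACGTG, and the D-box TTANGTAA. The repeat was found in no member window and in 0.0396% of all, the half-site in windows of 5 members (Acadm, Acadvl, Acot3, Acot4 and Cpt1a) and in 16.3% of all, the E-box in those of Fgf21 and Acot4 and in 7.15% of all, and the D-box in no member window and in 2.32% of all. A match describes letters and not binding, and no match says only that these letters are not in this window. The Cpt1a window (chr19:3323051-3323350, plus strand) is shown because it holds the half-site, in capitals, on the reverse strand and 94 bases before the start.
Cpt1a: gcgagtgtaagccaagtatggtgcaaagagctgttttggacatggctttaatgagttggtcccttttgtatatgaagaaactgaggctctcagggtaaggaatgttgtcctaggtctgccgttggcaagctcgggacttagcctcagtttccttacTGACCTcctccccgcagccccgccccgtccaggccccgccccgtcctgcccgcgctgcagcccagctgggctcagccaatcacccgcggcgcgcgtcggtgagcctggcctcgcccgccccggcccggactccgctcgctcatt

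Mitochondrial beta-oxidation was read by 14 genes. In MT mice 1 of them (Hadh) lay above and 8 lay below 3-month-old WT mice on both arrays, against 24% and 21.7% of all tested probe sets, and the median log2 difference was -0.14. Acaa2, the thiolase of the last step, had signals of 11894 and 17675 in MT mice, against 20029 and 20177 in WT livers at 3 months, 19345 and 15704 at 12 months and 20411 and 17992 at 19 months. Array 1 of the MT group was the lowest of the 8, and array 2 lay below both 3-month WT arrays but within the range of the older ones. The difference in MT mice was -0.47 ± 0.19 (limma adjusted p = 0.309), while the other probe sets of Acaa2 gave 0.10 and -0.18. Acads, the short-chain dehydrogenase, had signals of 2857 and 2947 in MT mice, against 3401 and 3158 in WT livers at 3 months, 3689 and 3605 at 12 months and 3382 and 2961 at 19 months. Both MT arrays of Acads lay below all WT arrays, by a small margin at 19 months, with a difference of -0.21 ± 0.11 from WT mice of all ages (adjusted p = 0.414).

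Etfa and Etfb encode the electron transfer flavoprotein that takes electrons from the acyl-CoA dehydrogenases, and Etfdh encodes the oxidoreductase that passes them on to ubiquinone. Etfa had signals of 16938 and 15360 in MT mice, against 17429 and 18047 in WT livers at 3 months, 17032 and 19155 at 12 months and 17922 and 16975 at 19 months, a difference of -0.14 ± 0.10 from WT mice of all ages (limma adjusted p = 0.561). Etfb had signals of 15038 and 14830 in MT mice, 16549 and 16517 in WT livers at 3 months, 17218 and 16373 at 12 months and 12862 and 10936 at 19 months. Both 19-month arrays of Etfb were the lowest of all 8. Its difference was -0.48 ± 0.12 at 19 against 3 months (adjusted p = 0.212), -0.50 ± 0.12 at 19 against 12 months (adjusted p = 0.232) and -0.15 ± 0.12 in MT mice (adjusted p = 0.649). Etfdh had signals of 11668 and 10396 at 19 months, against 10204 and 9356 at 3 months, a difference of 0.17 ± 0.14 (adjusted p = 0.664), where Etfa gave -0.02.

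Decr1 and Eci1 handle unsaturated chains, as a dienoyl-CoA reductase and an enoyl-CoA isomerase. Decr1 had signals of 10601 and 10291 in MT mice, 10998 and 12751 in WT livers at 3 months, 10412 and 13817 at 12 months and 8785 and 6536 at 19 months. Both 19-month arrays were again the lowest, with a difference of -0.64 ± 0.18 against 3 months (limma adjusted p = 0.245) and -0.66 ± 0.18 against 12 months (adjusted p = 0.290). Eci1 had signals of 8965 and 10223 in MT mice, 11546 and 11377 in WT livers at 3 months, 10435 and 13324 at 12 months and 9530 and 8146 at 19 months. The difference of Eci1 was -0.38 ± 0.15 at 19 against 3 months (adjusted p = 0.358), -0.42 ± 0.15 at 19 against 12 months (adjusted p = 0.375) and -0.26 ± 0.15 in MT mice (adjusted p = 0.499). At 19 against 3 months 8 of the 37 members had an unadjusted p under 0.05, against 12.5% of all tested probe sets. Of these 8, 4 were mitochondrial: Decr1, Eci1, Etfb and Hadh, all lower at 19 months by their main probe sets. For Hadh this rested on 1 of 3 probe sets. Its main one gave -0.26 ± 0.11 (limma adjusted p = 0.384), and the others gave -0.09 and 0.03 (adjusted p = 0.828 and 0.979).

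Other measures also moved with age. Summed hepatocyte marker signals lay between 292580 and 298340 in WT livers at 3 months, 292660 and 312250 at 12 months and 251250 and 258930 at 19 months, and summed Kupffer cell and macrophage signals between 26256 and 27059, 23093 and 24907, and 30881 and 48817 at the same ages. Summed B and plasma cell signals lay between 1231 and 1575 at 3 months, 3917 and 5073 at 12 months and 7854 and 8638 at 19 months. Neutrophil sums lay between 844 and 943, 984 and 1168, and 1667 and 1996, and T and NK cell sums between 972 and 1082, 739 and 978, and 654 and 736, at 3, 12 and 19 months. Of these lists, 8 of 8, 11 of 11, 6 of 7, 5 of 6 and 8 of 8 genes on the array were above its median on at least 1 array, with Cd79a of B cells and Camp of neutrophils below it on all. The log2 difference between the 3' and 5' control probe sets of pyruvate carboxylase, which rises as RNA or its copy shortens, was 4.25 and 3.88 at 3 months, 4.54 and 5.10 at 12 months and 5.86 and 4.77 at 19 months, while that of beta-actin lay between 1.09 and 1.31 on all 6 WT arrays. Their part in the differences of Etfb, Decr1, Eci1 and Hadh was not tested.

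Hadha and Hadhb encode the alpha and beta subunits of the mitochondrial trifunctional protein, and they start 273 bases apart on opposite strands, so that their windows share 228 bases. Hadha had signals of 3314 and 3714 in MT mice, 3611 and 3784 in WT livers at 3 months, 4468 and 4562 at 12 months and 5008 and 3371 at 19 months. Hadhb had signals of 10320 and 13941 in MT mice, 12553 and 13520 in WT livers at 3 months, 8908 and 11280 at 12 months and 12601 and 11915 at 19 months. At 12 against 3 months both arrays of Hadha lay higher and, by its main probe set, both arrays of Hadhb lower. The differences were 0.29 ± 0.18 (limma adjusted p = 0.712) and -0.38 ± 0.17 (adjusted p = 0.580), neither of which passed. Another probe set of Hadhb overlapped between these ages and gave 0.03 (adjusted p = 0.975). A further, dim one gave -0.46 (adjusted p = 0.685). The Hadhb window (chr5:30155003-30155302, plus strand), shown for this shared stretch, holds none of the 4 motifs.
Hadhb: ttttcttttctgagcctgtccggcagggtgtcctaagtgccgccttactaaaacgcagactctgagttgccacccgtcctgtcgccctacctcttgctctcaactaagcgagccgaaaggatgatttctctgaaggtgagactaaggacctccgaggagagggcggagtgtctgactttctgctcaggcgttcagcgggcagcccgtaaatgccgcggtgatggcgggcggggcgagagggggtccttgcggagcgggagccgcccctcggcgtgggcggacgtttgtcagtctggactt

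Hadh, the 3-hydroxyacyl-CoA dehydrogenase for medium and short chains, was read by 3 probe sets that disagreed at 12 months. The main probe set had signals of 43847 and 46413 in MT mice, 42440 and 43563 in WT livers at 3 months, 40238 and 45000 at 12 months and 37445 and 34506 at 19 months. The second probe set stayed between 13212 and 17874 on all arrays. The third had signals of 1000 and 1346 in MT mice, 1102 and 1618 in WT livers at 3 months, 280 and 187 at 12 months and 1475 and 1257 at 19 months. The 12-month arrays stood apart on the third probe set alone, while on the main probe set both 19-month arrays were the lowest of the 8. Its difference at 12 against 3 months was -2.55 (limma adjusted p = 0.0243), which makes it one of the 3 probe sets called in that comparison on the whole array, and at 19 against 12 months it was 2.57 (adjusted p = 0.0663). The call at 12 months was lost without either 3-month array, without array 2 of the 12-month group and without either 19-month array (adjusted p = 0.0532 to 0.129). The main and second probe sets gave -0.02 and -0.01 at 12 months (adjusted p = 0.983 and 0.989). No source used here says which part of Hadh each probe set reads. Whether the third probe set also reads other transcripts was not tested.

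**Figure D4:**
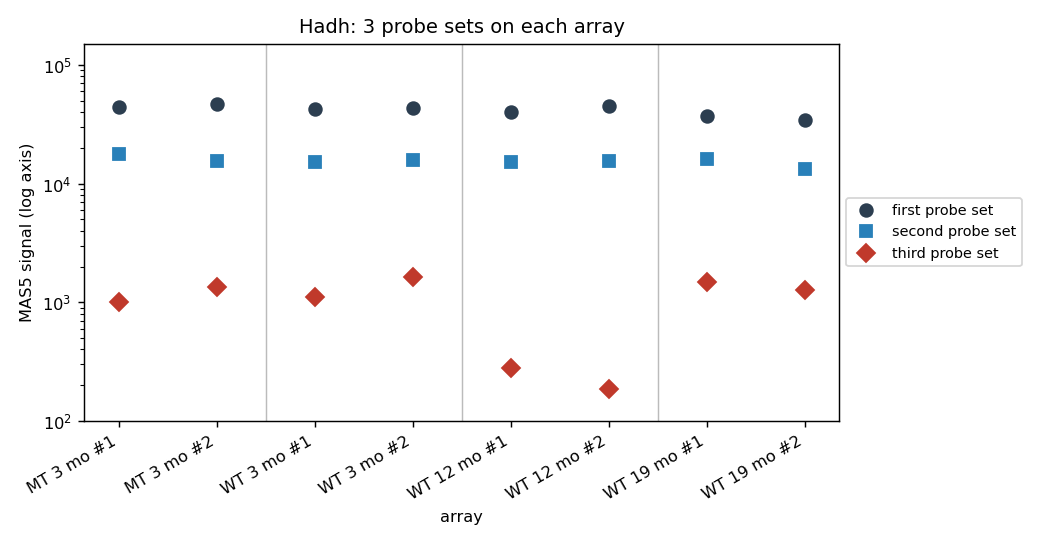
MAS5 signal on a log axis of the 3 probe sets of Hadh (colours) on each of the 8 arrays. The third probe set reads 280 and 187 on the 12-month arrays only, while the first and second stay within 34506 to 46413 and 13212 to 17874.

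The remaining mitochondrial acyl-CoA dehydrogenases of the list varied little. Acadvl, for very long chains and the steadiest of the 37 genes, lay between 9236 and 10218 on all 8 arrays, Acadm, for medium chains, between 22483 and 28080, and Acadl, for long chains, between 11339 and 15006. Acadl and Acadm lay lower on both MT arrays than on both 3-month WT arrays, with differences of -0.16 and -0.14 (limma adjusted p = 0.723 and 0.706). Acot2, a mitochondrial acyl-CoA thioesterase, gave 0.10 at 12 months by its main probe set and 1.31 (adjusted p = 0.414) by a dim probe set with signals of 123 and 277 at 12 months, against 70.1 and 79.2 at 3 months.

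Peroxisomal beta-oxidation was read by 9 genes. By main probe sets, 8 of the 9 had a difference above 0 in MT mice. No overlap of arrays was seen for 3 of these (Ehhadh, Acaa1a and Acaa1b, against 24% of all probe sets). Ech1 alone lay lower by this measure. The median log2 difference was 0.20 in MT mice, against -0.14 for the mitochondrial genes in the same comparison. No test was made of that difference. Of 23 tested peroxisomal genes outside the list (enzymes, transporters and peroxins), 12 had a difference above 0 in MT mice. Without overlap 9 of the 23 lay higher and 6 lower, against 24% and 21.7% of all probe sets. The median of the 23 was 0.024, against 0.018 for all tested probe sets. Acaa1a and Acaa1b, both 3-ketoacyl-CoA thiolases of peroxisomes, are near-identical copies, and 2 further probe sets that carry both names were not used. Acaa1a had signals of 1378 and 1445 in MT mice, against 1115 and 879 in WT livers at 3 months, 972 and 1106 at 12 months and 1503 and 1156 at 19 months. Acaa1b had signals of 51812 and 54529 in MT mice, against 42022 and 43828 in WT livers at 3 months, 44236 and 57356 at 12 months and 40174 and 38815 at 19 months. The MT arrays of both genes lay above the 3-month WT arrays, by 0.51 ± 0.19 for Acaa1a and 0.31 ± 0.13 for Acaa1b (limma adjusted p = 0.272 and 0.353). At 19 against 3 months Acaa1a gave 0.41 ± 0.19 and Acaa1b -0.12 ± 0.13 (adjusted p = 0.408 and 0.764), and at 19 against 12 months 0.35 and -0.35 (adjusted p = 0.536 and 0.396). A dimmer probe set of Acaa1a gave 0.46 in MT mice (adjusted p = 0.498). It gave -0.04 and -0.01 at 19 against 3 and against 12 months (adjusted p = 0.974 and 0.993).

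Ehhadh, the bifunctional enzyme of the inducible peroxisomal pathway, had signals of 12460 and 15494 in MT mice, against 11928 and 12279 in WT livers at 3 months, 12839 and 16388 at 12 months and 12359 and 11044 at 19 months, a difference of 0.20 ± 0.16 in MT mice (limma adjusted p = 0.635). Ech1, a dienoyl-CoA isomerase of both organelles, had signals of 10973 and 14104 in MT mice, against 16824 and 16025 in WT livers at 3 months, 12588 and 16274 at 12 months and 13502 and 11875 at 19 months. Of the other arrays, only array 2 of the 12-month group read as high as those of 3-month-old WT mice. Its difference was -0.40 ± 0.17 in MT mice (adjusted p = 0.336) and -0.37 ± 0.17 at 19 months (adjusted p = 0.396). Hsd17b4, the constitutive bifunctional enzyme, lay between 12097 and 14244 on all arrays by its main probe set. A dimmer probe set of Hsd17b4 read 6408 and 7136 in MT mice, against 7896 and 8412 in WT mice at 3 months. It gave -0.27 ± 0.13 in MT mice (limma adjusted p = 0.395), where the main one gave 0.05. Decr2 and Eci2, the peroxisomal reductase and isomerase for unsaturated chains, lay lower on both arrays at 19 than at 3 months, with differences of -0.45 and -0.15 (adjusted p = 0.482 and 0.876). Acot3 and Acot4, peroxisomal thioesterases, overlapped between groups in all 5 comparisons, and the 19-month arrays of Acot3 read 9500 and 3321.

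Cyp4a14, a microsomal omega-hydroxylase and one of the most inducible PPAR alpha targets of mouse liver, had signals of 3558 and 13509 in MT mice, against 1926 and 4080 in WT livers at 3 months, 4201 and 9184 at 12 months and 4413 and 3803 at 19 months. Array 2 of the MT group was the highest and array 1 overlapped with the 3-month WT arrays. The difference was 1.31 ± 0.59 in MT mice (limma adjusted p = 0.374), 1.15 ± 0.59 at 12 months (adjusted p = 0.634) and 0.55 ± 0.59 at 19 months (adjusted p = 0.758). With array 2 of the MT group left out, the difference from WT mice of all ages was -0.22, against 0.74 with all arrays. Cyp4a genes are near copies of each other, so that probes may read more than 1 of them.

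Acot1, the cytosolic long-chain acyl-CoA thioesterase, had signals of 1331 and 1773 in MT mice, against 1944 and 2112 in WT livers at 3 months, 3044 and 4704 at 12 months and 2080 and 1208 at 19 months. Both 12-month arrays were the highest of the 8 and both MT arrays lay below those of 3-month-old WT mice. The difference was 0.90 ± 0.28 at 12 against 3 months (limma adjusted p = 0.434), -1.26 ± 0.28 at 19 against 12 months (adjusted p = 0.212) and -0.40 ± 0.28 in MT mice (adjusted p = 0.589). The ketogenic step of the list is Bdh1, which turns acetoacetate into beta-hydroxybutyrate. Bdh1 had signals of 14521 and 19121 in MT mice, 15930 and 15902 in WT livers at 3 months, 10257 and 14836 at 12 months and 14507 and 14856 at 19 months. By its main probe set, both 12-month and both 19-month arrays of Bdh1 lay below the 3-month arrays. These differences were -0.37 ± 0.19 and -0.12 ± 0.19 (adjusted p = 0.630 and 0.850). The MT arrays lay on either side of the 3-month arrays, with a difference of 0.07 ± 0.19 (adjusted p = 0.920). A dimmer probe set of Bdh1 read 2028 and 1862.5 on the 19-month arrays, above the 1773 and 1610 of 3-month-old WT mice. That difference was 0.20 ± 0.23 (limma adjusted p = 0.768). On this probe set the 12-month arrays overlapped with the 3-month arrays (-0.33, adjusted p = 0.733), as did the MT arrays (-0.07, adjusted p = 0.930).

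The fasting signals and other PPAR alpha targets included the gene with the largest difference of the list against 3-month-old WT mice in all 3 other groups, Vnn1. All 4 of these genes had both MT arrays below both 3-month WT arrays, against 21.7% of all probe sets (median log2 difference -1.05). Roles were chosen with earlier results of these data known, so this count only describes the 4 genes. Cell type markers moved with genotype in the same arrays. Summed hepatocyte marker signals lay between 311430 and 325170 in MT mice, against 292580 and 298340 in WT mice at 3 months, neutrophil sums between 1200 and 1472, against 844 and 943, Kupffer cell and macrophage sums between 20065 and 22855, against 26256 and 27059, and T and NK cell sums between 643 and 665, against 972 and 1082. The log2 difference between the 3' and 5' control probe sets of beta-actin was 0.97 and 1.48 on the MT arrays, against 1.22 and 1.09 on the 3-month WT arrays. That of pyruvate carboxylase was 3.88 and 3.93, against 4.25 and 3.88. The part of these markers and controls in the differences of the 4 genes was not tested. Vnn1 encodes vanin-1, a pantetheinase on the cell surface. Its signals were 271 and 1503 in MT mice, against 4633 and 4388 in WT livers at 3 months, 1622 and 906 at 12 months and 1388 and 1080 at 19 months. Every array outside the 3-month WT group was at most 1622, so that the 3-month WT arrays stood apart from both older ages as well as from MT mice. The difference was -2.82 ± 0.62 in MT mice (limma adjusted p = 0.085), -1.89 ± 0.62 at 12 months (adjusted p = 0.454) and -1.88 ± 0.62 at 19 months (adjusted p = 0.292), and 0.01 ± 0.62 at 19 against 12 months. The size in MT mice rested on which MT array was used. It was -4.06 with array 2 left out (adjusted p = 0.00593) and -1.58 with array 1 left out (adjusted p = 0.0998), each with a lone MT array assumed to vary like the other groups. With only 3-month and 19-month WT arrays in the fit the age difference passed (adjusted p = 0.00468). A second Vnn1 probe set gave -2.99, -1.80 and -1.94 in the same 3 comparisons.

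Pdk4, the kinase that shuts pyruvate dehydrogenase when fatty acids are burned, had signals of 232 and 343 in MT mice, against 651 and 604 in WT livers at 3 months, 426 and 691 at 12 months and 450 and 547 at 19 months. Both MT arrays lay below all 6 WT arrays, the only one of the 4 fasting genes for which this held. The difference was -1.15 ± 0.27 against 3-month-old WT mice (limma adjusted p = 0.102), a signal 2.22 times lower in MT mice, and -0.97 ± 0.22 against WT mice of all ages (adjusted p = 0.0887). Without array 1 of the 12-month group the difference from WT mice of all ages was -1.09 and passed (adjusted p = 0.0416), while with any other array left out it lay between -1.25 and -0.69 and did not pass (adjusted p = 0.0886 to 0.326). At 12 and 19 months Pdk4 differed from 3-month-old WT mice by -0.21 and -0.34 (adjusted p = 0.887 and 0.658).

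Angptl4, a secreted inhibitor of lipoprotein lipase, had signals of 3717 and 6978 in MT mice, against 9556 and 9968 in WT livers at 3 months, 2736 and 9116 at 12 months and 1791 and 4688 at 19 months. The 3-month WT arrays were the highest of all 8, and arrays within each other group differed from each other by 0.91 to 1.74 on the log2 scale. The difference was -0.94 ± 0.57 in MT mice (limma adjusted p = 0.518), -0.97 ± 0.57 at 12 months (adjusted p = 0.685) and -1.75 ± 0.57 at 19 months (adjusted p = 0.283). The value at 12 months was -0.10 with array 1 of that group left out and -1.83 with array 2 left out. Fgf21, the liver hormone of fasting, had signals of 113 and 151 in MT mice, against 190 and 239 in WT livers at 3 months, 146 and 316 at 12 months and 151 and 305 at 19 months. The MT arrays lay below those of 3-month-old WT mice by 0.71 on the log2 scale (-0.71 ± 0.43, adjusted p = 0.518), and array 1 of each older group read about as low as array 2 of the MT group. Differences of Fgf21 at 12 and 19 months were 0.01 and 0.01.

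**Figure D5:**
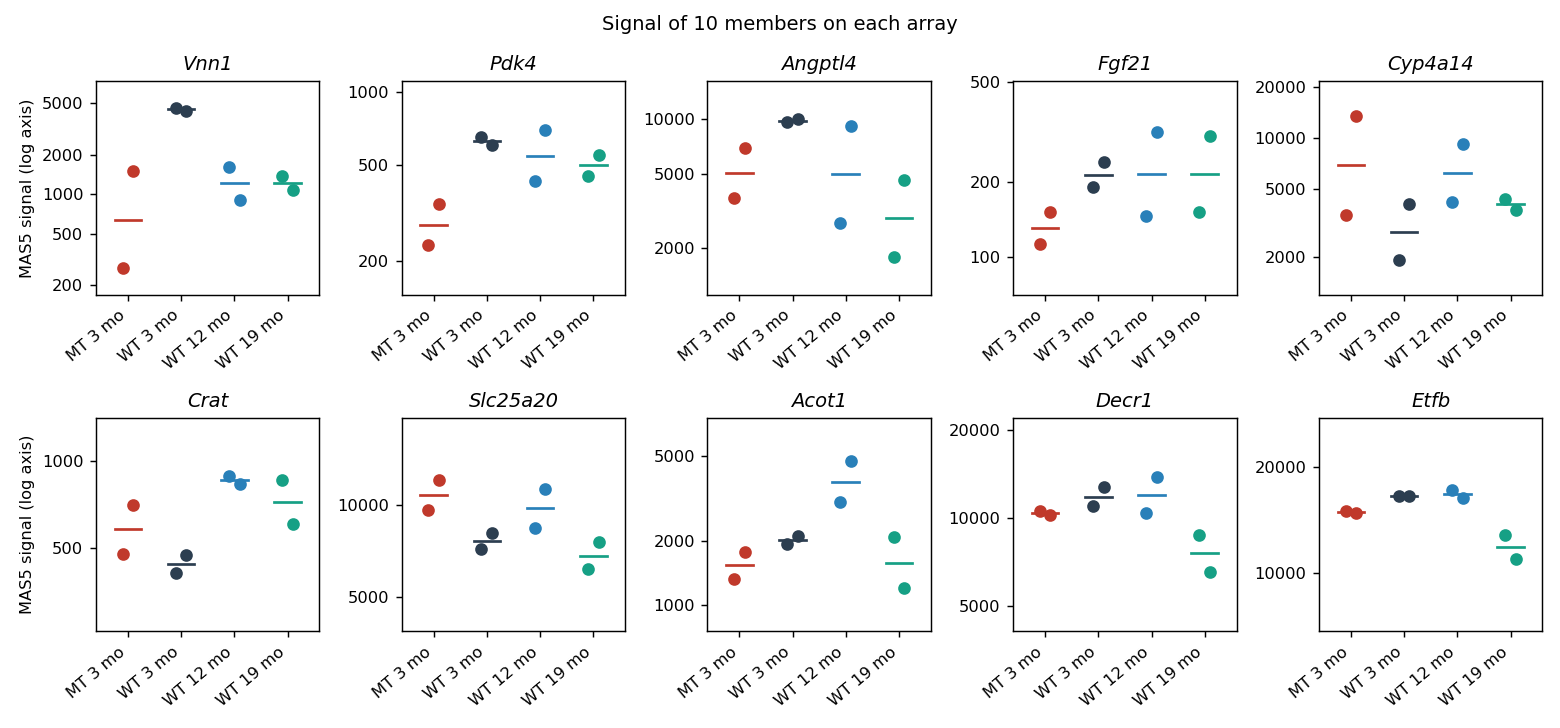
MAS5 signal on a log axis of 10 members on each array (points) with the geometric mean of each group (bar), MT mice first and then WT mice by age. Vnn1 lies at 271 and 1503 in MT mice, against 4633 and 4388 in WT mice at 3 months, and Pdk4 lies lowest in MT mice.

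The Pdk4 and Fgf21 windows are shown as those of the fasting genes that RefSeq's table holds. The Pdk4 window (chr6:5496229-5496528, minus strand) has none of the 4 motifs, and the Fgf21 window (chr7:45615441-45615740, minus strand) has 1 E-box, in capitals, 50 bases before the start.
Pdk4: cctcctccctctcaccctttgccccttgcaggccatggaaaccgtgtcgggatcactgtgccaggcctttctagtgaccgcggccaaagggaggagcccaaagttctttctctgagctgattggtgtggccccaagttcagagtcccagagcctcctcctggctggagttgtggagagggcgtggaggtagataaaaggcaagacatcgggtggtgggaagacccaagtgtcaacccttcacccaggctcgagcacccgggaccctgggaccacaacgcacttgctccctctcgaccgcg
Fgf21: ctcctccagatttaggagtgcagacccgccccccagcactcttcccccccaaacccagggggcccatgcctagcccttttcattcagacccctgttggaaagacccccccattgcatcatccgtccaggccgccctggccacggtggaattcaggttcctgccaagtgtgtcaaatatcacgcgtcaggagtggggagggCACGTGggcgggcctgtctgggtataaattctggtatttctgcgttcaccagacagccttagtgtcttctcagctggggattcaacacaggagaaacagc

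The E-box is the element of the circadian clock, and clock genes differed in the same arrays. Per2, a clock repressor, had signals of 1004 and 967 in MT mice, against 83.2 and 75.2 in WT mice at 3 months (log2 difference 3.64, limma adjusted p = 0.000463). In WT mice Per2 gave 1.73 at 12 and 1.99 at 19 against 3 months (adjusted p = 0.0635 and 0.0296). The call at 19 months was lost without any 1 array of either group. In MT mice limma called 3 of 13 tested E-box and D-box clock genes, against 0.515% of all probe sets. These were Per2, Usp2 and Wee1, all of them with more signal in MT livers. Wee1 lost its call without any 1 array of the MT or 3-month WT group (adjusted p = 0.09 to 0.167). Several members are known to cycle over the day in mouse liver, and no source gives a time for a single mouse within the harvest window, so the part of clock time in the differences of Pdk4, Vnn1 and Angptl4 was not tested.

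Outside the list, 127 genes of the same pathways were followed, of which 107 were tested. In MT against WT mice at 3 months 1 of the 107 was called, against 0.515% of all probe sets, and 20 lay higher and 36 lower without overlap, against 24% and 21.7% of all. Between WT ages 0 of the 107 were called, and 14 at 12 against 3 months, 24 at 19 against 3 and 24 at 19 against 12 months had an unadjusted p under 0.05, against 8.57%, 12.5% and 10.7% of all. The called gene was Nudt19, a peroxisomal hydrolase that cleaves CoA, with signals of 2590 and 2197 in MT mice, against 1138 and 1272 in WT livers at 3 months, 1366 and 1227 at 12 months and 1715 and 1735 at 19 months. Both MT arrays of Nudt19 lay above all WT arrays. It rose by 0.99 ± 0.15 in MT mice (limma adjusted p = 0.0282) and by 0.78 ± 0.12 against WT mice of all ages (adjusted p = 0.0301). Both calls of this probe set were lost without any 1 array of the MT, the 3-month or the 19-month WT group. With an array left out its differences ranged over 0.87 to 1.11 and 0.66 to 0.90. A second probe set of Nudt19 was also called in both comparisons, at 1.15 and 0.84 (limma adjusted p = 0.0151 and 0.0225). Its call at 3 months was lost without any 1 array of the MT or 3-month WT group. Leaving out a 19-month array did not remove that call. Against WT mice of all ages its call was lost without either MT array, and without some WT arrays.

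Among 18 tested receptor partners and coregulators, none was called in any comparison, against 0% to 0.795% of all probe sets. The smallest p in MT mice was that of Ppard, a sister receptor, at -1.16 (limma adjusted p = 0.218). Its signals were 47.5 and 70.0 in MT mice, against 158 and 105 in WT mice at 3 months. Rxra, the partner of PPAR alpha, gave 0.60 at 19 against 3 months (adjusted p = 0.230). Ppargc1a, a coactivator, gave 0.15 in MT mice and -0.99 at 12 months (adjusted p = 0.892 and 0.452). Among 25 tested other PPAR alpha targets, 0 were called in any comparison, against the same shares of all probe sets. In MT against WT mice at 3 months 7 of the 25 lay higher and 11 lower without overlap, against 24% and 21.7% of all. Their median log2 difference was -0.17, and 10 of them had a difference above 0. The smallest p in MT mice was that of Slc25a10, the dicarboxylate carrier, at 0.50 (limma adjusted p = 0.137). Among 4 tested ketone body genes, Slc16a1, which exports ketone bodies, gave -0.60 in MT mice (adjusted p = 0.285).

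Enzymes of fatty acid synthesis, the opposite side of fatty acid metabolism, did not pass at 12 months. Acacb, whose product malonyl-CoA blocks Cpt1a, was counted among the other PPAR alpha targets and not among the synthesis genes. Its signals were 373 and 82.4 in MT mice and 505 and 491 in WT livers at 3 months. They were 2485 and 1318 at 12 months and 383 and 348 at 19 months. Both 12-month arrays of Acacb were the highest, at 1.86 above 3 months, and at 19 against 12 months the difference was -2.31 (limma adjusted p = 0.418 and 0.244). Of 16 fatty acid synthesis genes, 0 were called at 12 against 3 months, against 0.0133% of all probe sets. By unadjusted p under 0.05 the count was 13, and 13 lay higher without overlap (8.57% and 19.3% of all probe sets). Among them was Fasn, the fatty acid synthase, at 1.23 (limma adjusted p = 0.394). Cd36, a fatty acid transporter, gave 1.53 at 12 and 1.81 at 19 months (adjusted p = 0.465 and 0.247).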

How the data were processed

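Total liver RNA was hybridised to Affymetrix 430 2.0 arrays, and the authors deposited MAS5 signal intensities on a linear scale, scaled to an equal trimmed mean. The MAS5 version, and whether an array read 1 mouse or a pool, are not given in the sources used here. Presence calls, which the study's methods used as a filter, were not used here. Of 45101 probe sets, 64 controls were left out, and of the other 45037, 34945 carried 1 symbol, 932 several and 9160 none in the platform annotation. RefSeq held 34741 of the named ones by Entrez ID and changed 0 symbols.

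Signals under 1 were set to 1 and put on the log2 scale. The test took the upper 50% of probe sets by mean log2 signal (22519, each with a mean of 6.18 or more) and used lmFit, contrasts.fit and eBayes with a variance trend, from limma 3.58.1 under R 4.3.3. All 8 arrays entered 1 fit, which had 4 residual degrees of freedom and a prior worth 5.37. P-values are two-sided, with a Benjamini-Hochberg adjustment over the probe sets of each comparison, and "called" means an adjusted p under 0.05. WT mice of all ages means the mean of the 3 WT groups at equal weight. The smallest exact permutation p between groups of 2 arrays is 0.333, so no such test was used. Python 3.11.15 with pandas 2.3.3, numpy 2.4.6 and matplotlib 3.10.9 made the tables and plots. Array numbers do not pair the groups.

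Members, roles, pathway and marker lists were chosen with earlier results of these data known. Values on every array are given for the 5 members with the largest differences in each direction and comparison among those whose arrays did not overlap and whose higher group lay above the array median, for Ppara, and for genes whose probe sets disagreed by over 1 log2 unit. For Etfdh, Cpt2 and Acot2, which fall under this rule, only some of these values are given. From other lists, called genes and those of smallest p are named, and some others as context. As alternatives the scaling of arrays, the log transform, the low-signal filter, the arrays in the fit, the variance prior, a replicate block, the threshold, the choice of probe set, and the test (the methods' t-test) were each varied, and each array was left out in turn. Precision is limited by having 2 arrays in a group.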

Additional observations from a re-analysis of the deposited data

How the results depend on the processing

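Of 3399 log2 differences of members under alternatives, 3374 were counted as unchanged, 9 passed the threshold only there and 16 turned round. A turn was counted only where the difference was larger than its standard error, so the 3374 include 144 sign changes of smaller ones. Of the counts of members called, 0 in each comparison, these moved. In MT against WT mice at 3 months 1 was called at an adjusted p under 0.10 (Vnn1) and 0 to 1 with an array left out (Vnn1, without array 2 of the MT group). In WT mice at 12 against 3 months the methods' t-test called 2, and at 19 against 3 months it called 1, as did a fit of only the groups compared. In MT mice against WT mice of all ages 1 was called at an adjusted p under 0.10 (Pdk4) and 0 to 1 with an array left out (Vnn1 without array 2 of the MT group, at -2.80 and an adjusted p of 0.0101, against -0.33 and 0.664 without array 1 of that group, and Pdk4 without array 1 of the 12-month group). After Benjamini-Hochberg adjustment the methods' t-test called 0 members. Where an array was left out, its group's lone array was assumed to vary like the others. That test and the fit of only the groups compared were not run for MT mice against WT mice of all ages.

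Taking the mean of all probe sets of a gene, untested dim ones included, turned Acadl in MT mice to 1.07, Cpt2 and Crot at 12 months to -0.24 and 0.00927, Acot2 and Etfdh at 19 months to 0.16 and -0.0782, and Cpt2, Hadh and Crot at 19 against 12 months to 0.28, 0.75 and -0.57. With an array left out, Decr2 at 12 months ranged over -0.81 to 0.0317, Acot3 at 19 months over -0.0742 to 1.44 and Acot1 at 19 months over -0.75 to 0.0377. At 19 against 12 months the ranges were -1.65 to 0.0829 for Angptl4, -0.36 to 0.00851 for Ech1 and -0.0152 to 0.52 for Bdh1. In MT mice against WT mice of all ages they were -0.22 to 1.70 for Cyp4a14 and -0.0282 to 0.29 for Ehhadh. The cause was not tested.

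The replicate block, with array numbers as a factor, called 0 members in all 5 comparisons. Differences between array 1 and array 2 correlated between groups at -0.03 to 0.14, so the samples share only a number, and the block moved the count over all probe sets at 19 against 3 months to 25, against 8 without it. Over all probe sets, in the order MT against WT mice at 3 months, WT mice at 12 against 3, 19 against 3 and 19 against 12 months, and MT mice against WT mice of all ages, 116, 3, 8, 0 and 179 were called. Without a variance trend these were 9, 0, 1, 0 and 19, at an adjusted p under 0.10 they were 413, 5, 57, 4 and 492, and for means over the probe sets of 10976 genes they were 37, 0, 1, 0 and 50. With an array left out they ranged over 13 to 255, 0 to 20, 2 to 30, 0 to 11 and 48 to 250. The methods' t-test called 890, 502, 750 and 524 in the first 4, and a fit of only the groups compared called 12, 135 and 5 between WT ages. In the upper 25% of probe sets 177 were called in MT mice at 3 months and 3 at 19 against 3 months, and without the low-signal filter 3 were called at 19 against 12 months. With 2 arrays in a group, differences of the size seen for most members could not be told from the spread between arrays.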
